A study of Mus musculus with 40 samples.

Results

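The genes described here are the 10 cAMP phosphodiesterases of the PDE3, PDE4, PDE7 and PDE8 families (Pde3a, Pde3b, Pde4a, Pde4b, Pde4c, Pde4d, Pde7a, Pde7b, Pde8a and Pde8b), chosen by family name from 20295 genes in a count table of mouse brown adipose tissue (BAT). All 10 passed the filter on low counts, which kept 13277 genes. BAT was taken from 40 male mice housed at 29 °C, in 8 groups of 5, and each mouse gave 1 RNA-seq library. In the first cohort, aged 13 to 19 weeks, C-3BO mice carried the Gpr3 TTG allele, a Gpr3 transgene driven by the ubiquitous CAG promoter at the ROSA26 locus, switched on in brown adipocytes by Ucp1-Cre. Their control littermates carried either the Gpr3 TTG allele without Cre or Cre without that allele, and both genotypes were fed chow or a high-fat diet (HFD) for 7 days. In the second cohort, mice aged 15 weeks and labelled Wildtype, which were control littermates from another Gpr3 line, received saline or the β3-adrenergic agonist CL-316,243 (CL) at 1 mg/kg each day for 9 days, on chow or on HFD for the last 7 of those days, and tissue was collected the day after the last injection.

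Cyclic AMP is the messenger through which β-adrenergic receptors and GPR3, a receptor that activates Gs without a ligand, drive lipolysis and heat production in brown adipocytes. Phosphodiesterases hydrolyse it and so end the signal. PDE3B, the main PDE3 of adipocytes, is inhibited by cGMP and activated by insulin, which is a route by which insulin restrains lipolysis. PDE4 enzymes are specific for cAMP and are phosphorylated by protein kinase A, and their genes give rise to long and short isoforms from separate promoters. PDE7 and PDE8 are specific for cAMP and bind it with high affinity, and PDE8 resists the broad inhibitor IBMX.

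Values below are CPM, counts scaled to a common library size with TMM factors. Levels of different genes are compared only as RPKM, the CPM per kilobase of counted exon. A gene was called changed at an adjusted p under 0.05 in edgeR's quasi-likelihood test, with Benjamini-Hochberg adjustment over the 13277 genes, and every adjusted p below comes from that test unless another tool is named. Where groups are said not to overlap, the share of all tested genes that also did not overlap was not counted. Totals ran from 849126 to 15260516 counts per library, so that 3 counts corresponded to between 0.206 and 3.01 CPM. The 12 libraries with albumin transcripts above 10 CPM were all 10 of the injected mice on HFD and replicates 4 and 5 of HFD C-3BO, and their totals (849126 to 7284129) were below those of the other 28 (7349348 to 15260516). Since all injected mice on HFD, and none on chow, were among them, diet cannot be told apart from that set of libraries in the second cohort, and no diet test is given there. Gpr3 averaged 376 CPM in chow C-3BO and 793 CPM in HFD C-3BO, against 0.388 and 0.336 CPM in their controls. Chow CL replicate 3 held 9.15 CPM of Gpr3, against at most 0.712 CPM in the rest of its group. Chow CL replicate 5 held 1645 CPM of Ucp1, the uncoupling protein of brown fat, within the range of chow saline (1268 to 1866) and below the rest of chow CL (5946 to 8991). In bulk tissue, fewer cells of a type and less RNA per cell cannot be told apart.

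Pde7a, the 1 member called lower in any treatment comparison below, held the full cAMP response element TGACGTCA in the 250 bases before its RefSeq start (mm9). The element reads the same on both strands, and 2.14% of 20278 different windows of that length in the table held it. The first 240 bases of the window, chr3:19211333-19211572 on the minus strand, are shown 5′ to 3′ on the strand of the gene to place that element, which is in capitals.
Pde7a: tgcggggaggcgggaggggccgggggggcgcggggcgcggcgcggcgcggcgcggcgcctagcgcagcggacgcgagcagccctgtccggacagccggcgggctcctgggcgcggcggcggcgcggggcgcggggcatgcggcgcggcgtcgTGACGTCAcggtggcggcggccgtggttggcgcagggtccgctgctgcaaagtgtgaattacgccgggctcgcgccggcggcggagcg

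The element began 98 bases before the start of Pde7a. Its window held 81.6% G or C and 49 CpG dinucleotides, against medians of 56.4% and 11 over all windows. The shorter core TGACG, or CGTCA on the other strand, occurred in 21.2% of all windows, counting those that hold the full element. It also occurred in Pde3b, at 225 and 146 bases before the start, and in Pde8a at 53 bases. These are matches of letters in 1 window per gene, and several members have further starts. In the GENCODE annotation of mm9, protein-coding transcripts of Pde4d began at 11 positions far from the counted start (more than 1 kb), those of Pde4b at 7, Pde8b at 4, and Pde4a, Pde7a and Pde7b at 2 each. The values below therefore describe genes, not isoforms. No exon base of the other members was shared with another annotated gene, except for 48 bases of Pde7a shared with Gm16093 on the opposite strand.

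Per length, Pde3b was the most abundant of the 10 transcripts, with a mean of 87.3 RPKM over the 40 libraries. Pde4a (31.2 RPKM), Pde4d (30.8 RPKM) and Pde8a (28.6 RPKM) followed, and their ranges over the libraries (19.2 to 48.0, 15.01 to 66.6 and 18.1 to 43.7) overlapped. These ranges pool all 8 groups, and the order of the genes was not tested. Pde4a and Pde4d averaged 28.1 and 20.6 RPKM in chow controls, and 40.7 and 46.1 RPKM in chow C-3BO. Pde7b averaged 11.7 RPKM and Pde4b 6.33 RPKM. Pde4c (2.34 RPKM), Pde7a (2.19 RPKM), Pde3a (1.68 RPKM) and Pde8b (0.685 RPKM) were the scarcest, and the count of Pde8b ranged from 3 to 50 per library. Pde7b was the most variable member. Its highest group mean was 6.85 times its lowest, against 1.57 times for Pde3b and 3.38 times for Pde3a, the next most variable.

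**Figure D1:**
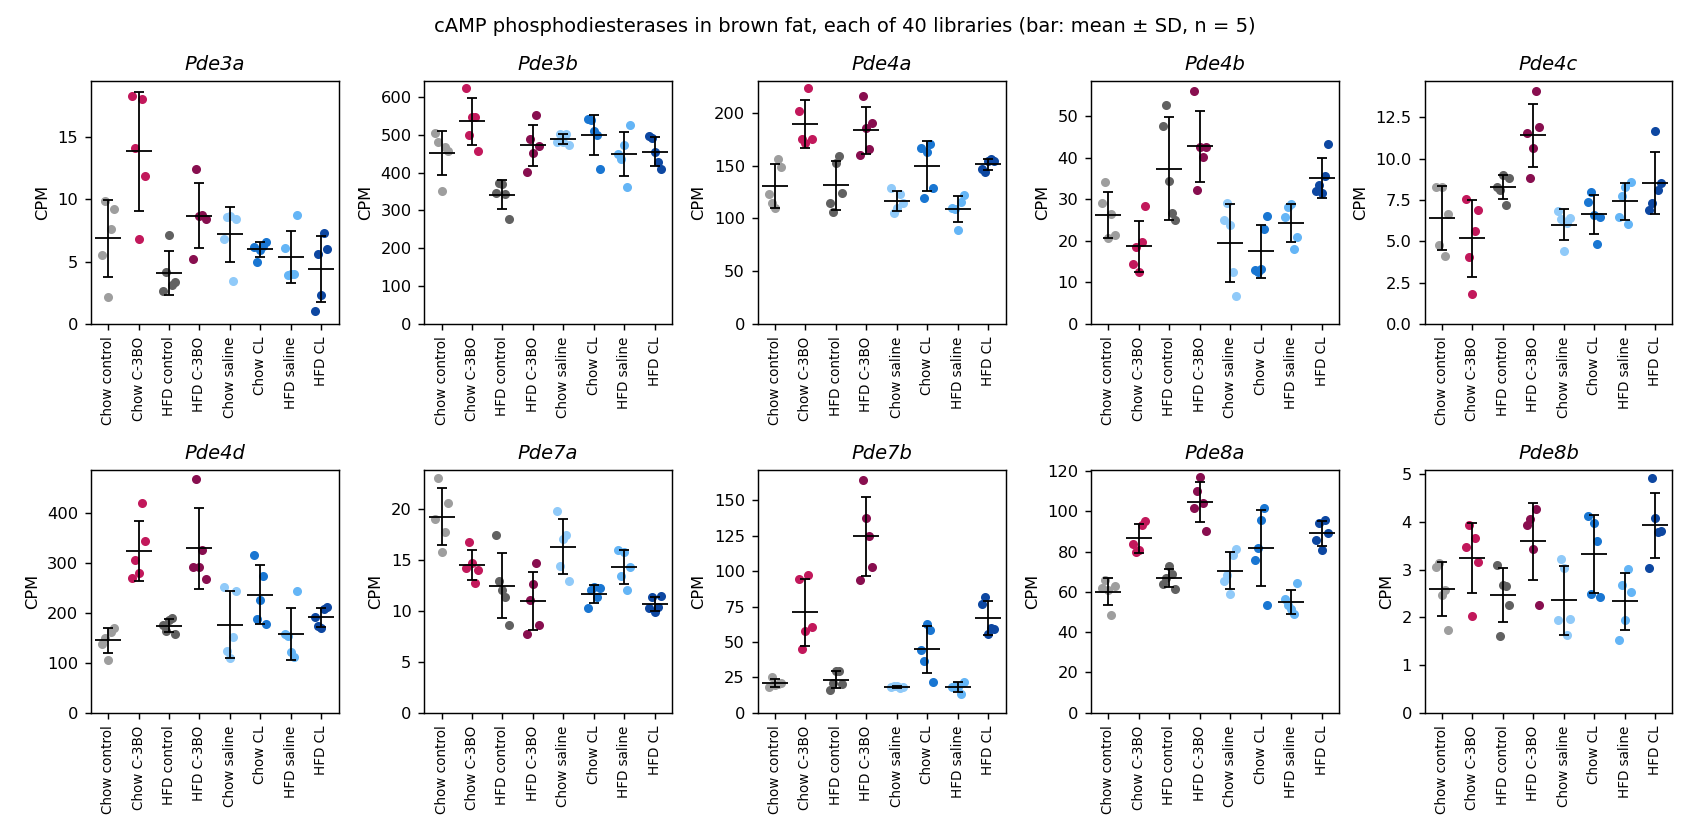
CPM of each of the 10 phosphodiesterases (y axis, 1 panel per gene, each starting at 0) in every library of the 8 groups (x axis). Points are single mice, horizontal bars are means and whiskers are SD (n = 5 per group). All C-3BO libraries lie above all control libraries for Pde7b, Pde4d, Pde4a and Pde8a on each diet. The share of all tested genes that separate in this way was not counted.

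The summed level of the 10 transcripts was 175 ± 17.7 RPKM in chow controls and 250 ± 23.9 in chow C-3BO, and 163 ± 14.2 in HFD controls and 263 ± 27.1 in HFD C-3BO (SD, n = 5). It was 184 ± 10.6 RPKM with saline and 212 ± 27.5 with CL on chow, and 168 ± 22.0 and 210 ± 6.95 on HFD. The makeup also differed between groups. PDE3 genes made up 49.7% ± 2.32 of the sum in chow controls and 41.9% ± 3.88 in chow C-3BO (SD, n = 5). On HFD they made up 40.2% ± 2.22 in controls and 34.8% ± 3.02 in C-3BO mice, so their share was lower with HFD in the controls of this cohort too. In the second cohort PDE3 genes made up 51.2% ± 3.60 with saline and 45.6% ± 3.67 with CL on chow. On HFD these shares were 51.4% ± 2.39 and 41.6% ± 2.45. PDE7 genes made up 4.65% ± 0.528 in chow controls and 7.69% ± 1.48 in chow C-3BO. On HFD they made up 4.66% ± 0.490 in controls and 12.05% ± 1.55 in C-3BO mice. PDE7 genes also made up 3.82% ± 0.319 of the sum with saline and 5.89% ± 1.35 with CL on chow, and 3.98% ± 0.291 and 8.50% ± 1.12 on HFD. Shares of a sum depend on each other, and they were not tested.

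**Figure D2:**
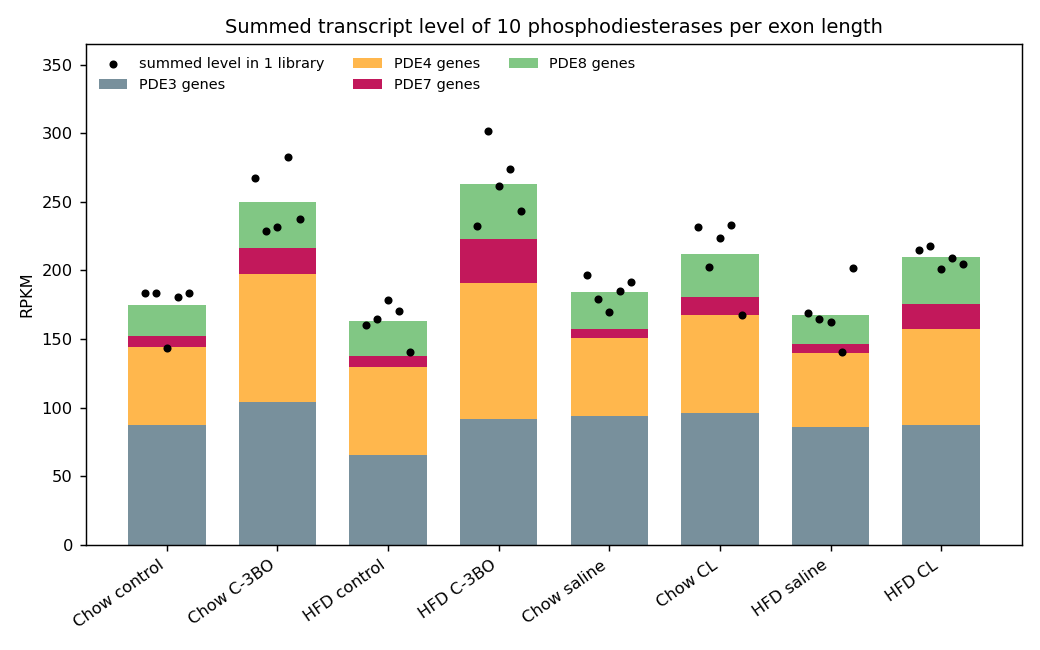
Mean summed RPKM (y axis) of the PDE3, PDE4, PDE7 and PDE8 genes, stacked, in the 8 groups (x axis). Black points give the sum in each library (n = 5 per group). The PDE7 layer is deepest in HFD C-3BO, and the sums of C-3BO libraries lie above those of all control libraries on each diet.

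GPR3 overexpression was first compared with its littermate controls, to ask which phosphodiesterase transcripts differ when cAMP production is raised from within the brown adipocyte. On chow, 5 of 10 members rose and 1 fell, where 15.8% of all tested genes rose and 15.9% fell. On HFD, 6 of 10 rose and none fell, where the background was 19.3% and 15.5%. The median log2 fold change of the 10 members was 0.42 on chow and 0.51 on HFD, against -0.03 and -0.02 over all tested genes.

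Pde7b showed the largest change. On chow its level was 18.5, 25.5, 19.4, 20.1 and 20.8 CPM in the 5 controls, and 94.4, 44.8, 57.6, 97.0 and 60.3 CPM in the 5 C-3BO mice. On HFD it was 15.8, 21.1, 29.8, 29.4 and 20.4 CPM in controls, and 93.8, 164, 138, 125 and 103 CPM in C-3BO mice. Every C-3BO mouse was above every control on the same diet. The log2 fold change was 1.76 (SE 0.21, adjusted p = 7.4e-08) on chow and 2.42 (SE 0.21, adjusted p = 4.03e-11) on HFD.

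Pde4d, a cAMP-specific enzyme with many isoforms, was the other member with a large shift at a high level. Its chow values were 138, 150, 106, 163 and 170 CPM in controls and 271, 307, 280, 421 and 344 CPM in C-3BO mice, and the log2 fold change was 1.16 (SE 0.20, adjusted p = 2.81e-05). On HFD the values were 177, 164, 186, 190 and 158 CPM in controls and 293, 469, 292, 327 and 268 CPM in C-3BO mice, and its log2 fold change was 0.92 (SE 0.20, adjusted p = 0.000418). The groups did not overlap on either diet.

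Pde4a and Pde8a rose by smaller amounts, also without overlap between groups on either diet. Pde4a averaged 131 ± 20.8 CPM in chow controls and 189 ± 22.7 in chow C-3BO (SD, n = 5), and its log2 fold change was 0.53 (SE 0.12) on chow and 0.48 (SE 0.12) on HFD. Pde8a averaged 60.1 ± 6.72 CPM in chow controls and 86.6 ± 7.13 in chow C-3BO, and its log2 fold change was 0.53 (SE 0.11) on chow and 0.65 (SE 0.11) on HFD. The largest adjusted p of these 4 values was 0.00115.

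The PDE3 genes differed from each other. Pde3b held 503, 481, 352, 467 and 456 CPM in chow controls and 624, 500, 546, 546 and 458 CPM in chow C-3BO, and these groups overlapped (log2 fold change 0.24, SE 0.10, adjusted p = 0.0656). Without C-3BO replicate 5 or without control replicate 1 that value passed (adjusted p = 0.0342 and 0.0307). On HFD, Pde3b held 346, 373, 369, 344 and 277 CPM in controls and 403, 488, 451, 551 and 469 CPM in C-3BO mice, which did not overlap (log2 fold change 0.47, SE 0.10, adjusted p = 0.000473). Pde3a, a scarce transcript here and best known from heart, vessels and oocytes, held 5.54, 9.83, 2.13, 7.58 and 9.19 CPM in chow controls and 18.2, 14.1, 6.81, 18.1 and 11.9 CPM in chow C-3BO. Its log2 fold change was 1.01 (SE 0.34, adjusted p = 0.019) on chow and 1.08 (SE 0.35, adjusted p = 0.0151) on HFD. The groups overlapped on each diet. The chow call was lost without C-3BO replicate 1, C-3BO replicate 4 or control replicate 3 (adjusted p 0.0528, 0.0573 and 0.0643), and the HFD call without C-3BO replicate 2 or control replicate 1 (0.0614 and 0.0537).

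Pde7a was the 1 member that fell. It held 19.01, 23.1, 15.8, 17.8 and 20.6 CPM in chow controls and 14.2, 16.8, 14.7, 12.7 and 14.04 CPM in chow C-3BO, and a single C-3BO mouse reached into the control range. Its log2 fold change was -0.41 (SE 0.15, adjusted p = 0.0285) on chow and -0.20 (SE 0.15, adjusted p = 0.312) on HFD. The chow call was lost when any of C-3BO replicates 1, 3, 4 and 5 or control replicates 1, 2 and 5 was left out (adjusted p 0.0509 to 0.0938). Pde4b, Pde4c and Pde8b passed the test on neither diet, with log2 fold changes of -0.50, -0.32 and 0.31 on chow and 0.19, 0.45 and 0.54 on HFD. Pde8b passed on HFD without C-3BO replicate 5 (adjusted p = 0.0333), and Pde4c passed there with the libraries of that comparison alone (0.0324).

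**Figure D3:**
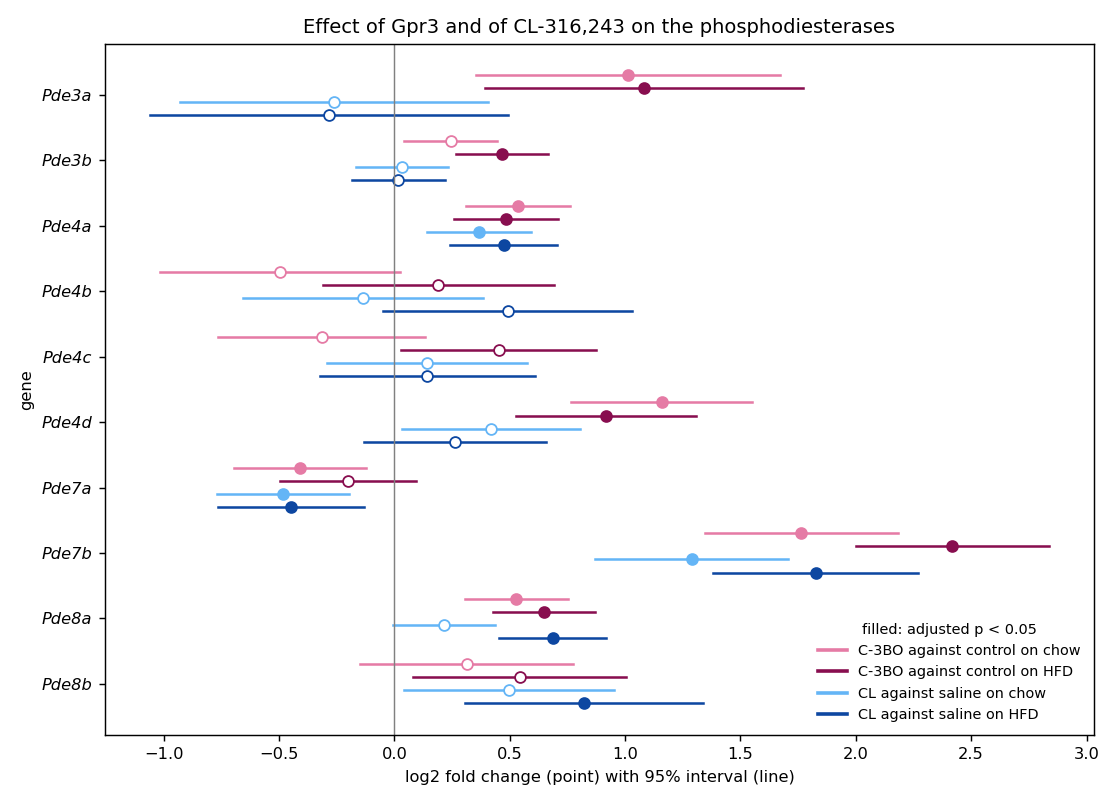
Log2 fold change (x axis) of each phosphodiesterase (y axis) for C-3BO against control and CL against saline, on chow and on HFD. Points are edgeR estimates, lines are 95% intervals from the standard error, and filled points have an adjusted p under 0.05. Pde7b is the member farthest to the right in each of the 4 comparisons, and Pde7a lies left of 0 in each.

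CL was then compared with saline, to ask what repeated stimulation of the β3 receptor from outside leaves in these transcripts a day after the last dose. On chow, 2 of 10 members rose and 1 fell, where 9.16% of tested genes rose and 6.13% fell. On HFD, 4 of 10 rose and 1 fell, where the background was 12.7% and 10.8%. The median log2 fold change of the 10 members was 0.18 on chow and 0.37 on HFD, against -0.01 over all tested genes in each.

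Pde7b again showed the largest change. With saline it stayed within 17.4 to 18.9 CPM on chow, with a median of 18.5, and with CL it reached 44.3, 36.8, 62.4, 58.6 and 21.4 CPM. The lowest of these is replicate 5, the library with Ucp1 at the level of saline, and it was still above all 5 saline mice. The log2 fold change on chow was 1.29 (SE 0.21, adjusted p = 4.84e-05), and 1.47 without replicate 5. On HFD, Pde7b held 18.5, 19.2, 18.4, 13.04 and 21.8 CPM with saline and 77.1, 82.0, 55.6, 59.8 and 59.4 CPM with CL, a log2 fold change of 1.83 (SE 0.23, adjusted p = 1.89e-07).

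Pde7a fell on each diet, with no overlap between groups. On chow it held 19.8, 14.4, 17.1, 17.5 and 12.9 CPM with saline and 10.3, 12.1, 12.4, 11.3 and 12.3 CPM with CL (log2 fold change -0.48, SE 0.15, adjusted p = 0.0202). On HFD it held 15.99, 13.4, 15.8, 12.04 and 14.3 CPM with saline and 10.3, 11.4, 9.89, 10.4 and 11.5 CPM with CL (log2 fold change -0.45, SE 0.16, adjusted p = 0.0392). The HFD saline value of 12.04 CPM rests on 12 counts. Both calls of Pde7a were close to the threshold. The chow call was lost without CL replicate 1 or saline replicate 1 (adjusted p 0.059 and 0.0634), and the HFD call without any of CL replicates 1 to 4 or saline replicates 1, 3 and 5 (0.0511 to 0.103).

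Pde4a, Pde8a and Pde8b made up the rest of the calls. Pde4a averaged 116 ± 9.47 CPM with saline and 150 ± 23.8 with CL on chow (log2 fold change 0.36, SE 0.12, adjusted p = 0.0259), and 109 ± 12.2 and 151 ± 5.58 on HFD (0.47, SE 0.12, adjusted p = 0.00311). Its chow call was lost without CL replicates 1, 3 or 4 or saline replicates 2 or 3 (adjusted p 0.0647 to 0.0936), with no filter on low counts (0.0562) and with the libraries of that comparison alone (0.0656). Pde8a rose on HFD from 56.4, 53.5, 51.3, 49.2 and 64.6 CPM to 85.6, 94.2, 80.9, 95.6 and 89.3 CPM (log2 fold change 0.69, SE 0.12, adjusted p = 3.93e-05). On chow its log2 fold change was 0.21 (SE 0.11, adjusted p = 0.205), and 0.33 (adjusted p = 0.0172) without CL replicate 5, which at 53.5 CPM was below all saline mice. Pde8b, the scarcest member, held 1.52, 2.68, 1.94, 3.01 and 2.54 CPM with saline and 3.03, 4.92, 4.07, 3.80 and 3.82 CPM with CL on HFD (log2 fold change 0.82, SE 0.26, adjusted p = 0.0205). The saline value of 3.01 CPM rests on 3 counts, and the call was lost without CL replicate 2 or saline replicates 1 or 3 (adjusted p 0.0603 to 0.0774).

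Pde3b was close to equal with and without CL. It averaged 488 CPM with saline and 500 CPM with CL on chow, and 449 and 455 CPM on HFD, with log2 fold changes of 0.03 (95% interval -0.17 to 0.23) and 0.02 (95% interval -0.18 to 0.22). Pde3a and Pde4c passed on neither diet, with log2 fold changes of -0.26 and 0.14 on chow and -0.28 and 0.14 on HFD. Pde4d had log2 fold changes of 0.42 (adjusted p = 0.151) on chow and 0.26 (adjusted p = 0.374) on HFD. Pde4b had -0.14 on chow and 0.49 (adjusted p = 0.204) on HFD, where all 5 CL mice were above all 5 saline mice and the libraries of that comparison alone gave an adjusted p of 0.0138.

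The difference between the effects of C-3BO and CL was tested for each member, which sets the cohorts side by side without treating 1 as the control of the other. No member passed on chow or on HFD with edgeR, where 6.24% and 1.8% of all genes did. At an unadjusted p under 0.05 there were 2 members on chow (Pde3a and Pde4d) and 3 on HFD (Pde3a, Pde3b and Pde4d), and DESeq2 called 0 on chow and 1 on HFD (Pde3b, adjusted p = 0.0496). The C-3BO effect exceeded the CL effect by a log2 value of 1.27 (95% interval 0.34 to 2.21, adjusted p = 0.105) for Pde3a and 0.74 (0.19 to 1.29, adjusted p = 0.107) for Pde4d on chow. On HFD it did so by 1.36 (0.33 to 2.40, adjusted p = 0.209) for Pde3a, 0.65 (0.10 to 1.21, adjusted p = 0.278) for Pde4d and 0.45 (0.17 to 0.73, adjusted p = 0.106) for Pde3b. On chow, Pde3a passed without C-3BO replicate 3, and Pde4d passed without saline replicate 3, each as the only member called there. For Pde7b the difference was 0.48 (-0.11 to 1.06) on chow and 0.59 (-0.0036 to 1.19) on HFD.

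Diet was compared within the first cohort. In control mice no member rose and 2 fell, where 15.4% of tested genes rose and 17.5% fell. In C-3BO mice 3 rose and 1 fell, where the background was 13.5% and 12.2%. In controls, Pde3b fell from 452 ± 58.8 to 342 ± 38.6 CPM (SD, n = 5, log2 fold change -0.40, SE 0.10, adjusted p = 0.00219), and Pde7a fell from 19.3 ± 2.78 to 12.5 ± 3.24 CPM (-0.62, SE 0.14, adjusted p = 0.00097). Pde3a, at -0.73 (adjusted p = 0.104), passed without chow control replicate 3 or HFD control replicate 3 (adjusted p = 0.0281 and 0.0277).

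In C-3BO mice, Pde4b and Pde4c, PDE4 genes at low levels in this tissue, rose with HFD without overlap. Pde4b held 14.3, 18.5, 12.5, 19.8 and 28.4 CPM on chow and 55.9, 32.2, 42.6, 40.2 and 42.6 CPM on HFD (log2 fold change 1.19, SE 0.27, adjusted p = 0.00102). Pde4c held 7.54, 4.05, 1.79, 5.65 and 6.88 CPM on chow and 11.6, 8.81, 10.6, 14.1 and 11.9 CPM on HFD (1.14, SE 0.23, adjusted p = 0.000302). Pde7b rose further, by 0.82 (SE 0.20, adjusted p = 0.00272), and 4 of 5 HFD mice were above all chow mice. Pde7a fell, by a log2 fold change of -0.41 (SE 0.15, adjusted p = 0.0453), a call lost without any of chow C-3BO replicates 1, 2, 3 and 5 or HFD C-3BO replicates 1, 2 and 5 (0.0501 to 0.166) and without both HFD C-3BO libraries that hold liver transcripts (0.0546). It was also lost with DESeq2 (0.0517) and with the libraries of that comparison alone (0.0827). Without that pair, Pde4b, Pde4c and Pde7b remained called, at 1.22, 1.01 and 0.90. Pde8a passed without HFD C-3BO replicate 5 (adjusted p = 0.0477).

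**Figure D4:**
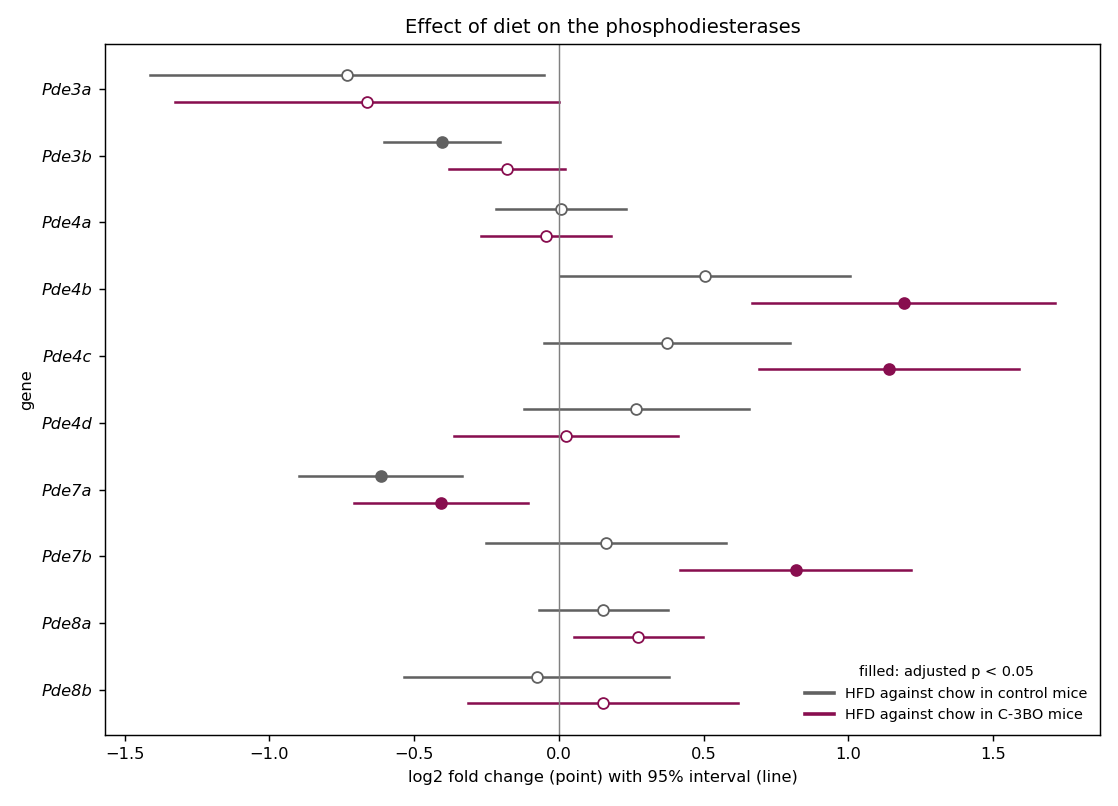
Log2 fold change (x axis) of each phosphodiesterase (y axis) for HFD against chow in control mice and in C-3BO mice. Points are edgeR estimates, lines are 95% intervals from the standard error, and filled points have an adjusted p under 0.05. Pde4b, Pde4c and Pde7b are filled on the right for C-3BO mice, and Pde3b and Pde7a on the left for control mice.

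Whether diet changed the effect of C-3BO was tested as the difference of the effects. No member passed with edgeR or DESeq2, where edgeR called 2.08% of all genes, and 2 members had an unadjusted p under 0.05. These were Pde4c, at 0.77 (95% interval 0.15 to 1.38, adjusted p = 0.213), and Pde7b, at 0.65 (0.08 to 1.23, adjusted p = 0.262). The calls for Pde4b and Pde4c in C-3BO mice and not in controls are therefore not shown to differ between genotypes. For CL, no member passed with either tool, where edgeR called 0.0151% of all genes, and Pde8a alone had an unadjusted p under 0.05 (0.47, 95% interval 0.15 to 0.79, adjusted p = 0.341). For CL, that difference also sets libraries with liver transcripts against libraries without them.

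Markers of other cells moved with some of these groups. The summed level of 8 brown adipocyte markers ran from 4580 to 6261 CPM in chow controls and from 9702 to 13508 in chow C-3BO, and from 5237 to 13889 and from 17235 to 20916 on HFD. It was also higher with CL, at 3736 to 5713 against 5668 to 12945 CPM on chow and 4996 to 6801 against 12165 to 16107 CPM on HFD. Ucp1, 1 of the 8, alone ran from 1268 to 1866 CPM with saline and from 1645 to 8991 with CL on chow. The median log2 fold change of the 8 was 0.55 and 0.57 for C-3BO and 0.42 and 0.40 for CL on chow and HFD. The medians of 7 general adipocyte markers were 0.15 and -0.01 for C-3BO and -0.04 and -0.11 for CL. The part of the brown adipocyte markers in the rise of Pde7b was not tested. The 4 smooth muscle markers, from cells known for Pde3a, summed to 69.4 to 91.6 CPM in chow controls and 36.9 to 79.3 in chow C-3BO. On HFD they summed to 124 to 165 CPM in controls and 61.0 to 107 in C-3BO mice. The part of these markers in the rise of Pde3a was not tested. All 5 endothelial markers rose with HFD in controls and in C-3BO mice, and their sum went from 870 ± 201 to 1360 ± 67.04 CPM in C-3BO mice, where Pde4b and Pde4c rose. All 6 skeletal muscle markers fell with HFD in each genotype, where Pde7a fell, and their sum ran from 611 to 7760 CPM in chow controls and from 4.32 to 171 in HFD controls. With C-3BO on chow, where Pde7a also fell, none of the 6 was called (median log2 fold change -1.63). Their sum ran from 317 to 3056 CPM in chow C-3BO, which overlapped the chow controls. With CL on HFD none of the 6 was called either (median -1.09). On chow, 5 of these 6 markers also fell with CL. The sum of all 6 ran from 8.14 to 2045 CPM with saline and from 8.46 to 113 CPM with CL, and these ranges overlapped. The 5 macrophage markers summed to 220 to 560 CPM with saline on HFD and 90.8 to 291 with CL. The part of the endothelial, muscle and macrophage markers in these results was not tested. In HFD C-3BO mice without the libraries that hold liver transcripts, the same count of 6 members rose against controls, with Pde7b at 2.50.

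The other cyclic nucleotide phosphodiesterases gave a comparison within the enzyme class. Of 14 such genes, 8 were tested, and none of the 8 rose with C-3BO or CL on either diet. Of all tested genes, 15.8% and 19.3% rose with C-3BO on chow and HFD, and 9.16% and 12.7% with CL. At such shares, a count of none in 8 genes does not set them apart. Pde6d, named for the retinal enzyme but coding for a carrier of prenylated proteins, fell with C-3BO on chow (log2 fold change -0.62) and HFD (-0.59). Pde2a, which cGMP activates, fell with C-3BO on HFD (-0.40). With HFD, Pde2a rose in controls (0.68) and in C-3BO mice (0.57), as did the calcium-regulated Pde1b (0.59 and 0.67).

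The genes that make cAMP were called in both directions. Of 14 tested genes on that list, 4 rose and 1 fell with C-3BO on chow, and 4 rose and 3 fell on HFD, Gpr3 included as the transgene. With CL, 3 rose and 3 fell on chow, and 2 rose and 2 fell on HFD. The 3 that rose on chow include Gpr3 itself, at 9.15 CPM in replicate 3 and at most 0.712 CPM in the other CL mice. Of all tested genes, 15.8% rose and 15.9% fell with C-3BO on chow, and 19.3% and 15.5% on HFD. With CL, 9.16% rose and 6.13% fell on chow, and 12.7% and 10.8% on HFD. The counts of the list were not tested against these shares. Adcy3, an adenylyl cyclase, rose in all 4 comparisons, with its largest log2 fold change, 2.03, for C-3BO on HFD and 1.61 for CL on HFD. Gnas, which codes for the stimulatory G protein, averaged 3451 CPM in HFD controls and 6138 CPM in HFD C-3BO (0.83).

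Of 12 tested cAMP effectors, 2 rose and 2 fell with C-3BO on chow, 3 rose and 1 fell on HFD, 1 fell with CL on chow, and 1 rose and 1 fell with CL on HFD. The shares of all tested genes given just above apply to the counts of this and the next 2 lists, which were not tested against them. Rapgef4, the cAMP-regulated exchange factor EPAC2, rose with C-3BO on HFD (1.01). Prkar2b, the protein kinase A regulatory subunit typical of adipocytes, rose with C-3BO on chow (0.90) and HFD (0.57) and with CL on HFD (0.59). Pkia, an inhibitor of protein kinase A abundant in muscle, fell in all 4 comparisons, by -1.53 and -2.24 for C-3BO and -1.69 and -1.58 for CL on chow and HFD. Of 12 genes for partners of phosphodiesterases, 5 rose and 2 fell with C-3BO on chow, 2 rose and 1 fell on HFD, and 1 rose with CL on chow, while 1 rose and 1 fell with CL on HFD. Abhd15, whose product binds and stabilizes PDE3B, rose with C-3BO on chow (0.66) and HFD (1.10) and with CL on HFD (0.74). Its group means were 64.1 CPM in HFD controls and 137 CPM in HFD C-3BO. Of 11 tested cAMP-responsive genes, 3 rose and 4 fell with C-3BO on chow, 2 rose and 2 fell on HFD, 1 rose and 4 fell with CL on chow, and 2 rose and 2 fell with CL on HFD. Ucp1 rose in all 4 comparisons (2.38 and 1.52 for C-3BO, 1.90 and 1.74 for CL on chow and HFD), and the early-response gene Nr4a1 fell in all 4 (-3.63, -2.98, -2.28 and -2.80). On chow, Nr4a1 ran from 46.4 to 656 CPM with saline and from 18.9 to 123 CPM with CL, and these ranges overlapped.

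Over the 40 libraries, the genes whose level was most like that of Pde7b were Abcd3, a peroxisomal transporter (Spearman's rho 0.932), Acad11, an acyl-CoA dehydrogenase (0.929), and Vwa8 (0.924). In the 28 libraries without liver transcripts the same values were 0.907, 0.903 and 0.901. For Pde3b, the nearest were Pcmtd1 (0.724), Ap5m1 (0.718) and Secisbp2l (0.718). The libraries share groups and scaling, and these values are given as a description.

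A stricter rule, which also asked for a log2 fold change beyond 1 or -1, left fewer members. With C-3BO on chow it called 3 (Pde3a, Pde4d and Pde7b) where 7.19% of all genes passed, and on HFD 2 (Pde3a and Pde7b) where 7.43% did. With CL it called Pde7b alone on each diet, where 2.58% of genes passed on chow and 4.11% on HFD. For HFD against chow it called 0 members in controls (6.12% of genes) and 2 in C-3BO mice (Pde4b and Pde4c, 5.8% of genes). Scaling by library totals alone moved the median of all genes to -0.23 and -0.19 for C-3BO and to -0.15 for CL on each diet, and the share of called genes that were higher from 49.8% to 20.2% and from 55.3% to 30.1% for C-3BO, and from 59.9% to 26.6% and from 54.0% to 27.9% for CL, on chow and HFD. For diet it moved that share from 46.9% to 71.2% in controls and from 52.6% to 81.8% in C-3BO mice, with medians of 0.15 and 0.21. Under it Pde7b remained called in all 4 treatment comparisons, with log2 fold changes of 1.58 and 2.26 for C-3BO and 1.14 and 1.68 for CL. The same scaling ended the calls of Pde4a for CL on chow (adjusted p = 0.172), Pde8b for CL on HFD (0.0617), Pde3a for C-3BO on chow (0.0518) and Pde7a for diet in C-3BO mice (0.264). It added calls of Pde7a, lower with C-3BO on HFD (0.0466), and of Pde8a, higher with HFD in controls (0.0261) and in C-3BO mice (0.0017).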

How the data were processed

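RNA from BAT was sequenced as poly(A) TruSeq libraries on an Illumina HiSeq instrument. The authors aligned reads to mm9 with STAR, and deposited 1 table of raw counts over the exons of 1 RefSeq transcript per gene, made with HOMER and iRNA-seq. Tool versions and the use of strand are not given in the sources used here. The authors tested with DESeq2. Counts were fitted here with edgeR 4.0.16 (R 4.3.3), with TMM factors, filterByExpr at a minimum count of 10 over the 8 groups and quasi-likelihood tests on all 40 libraries. CPM and RPKM use counts over tested genes times TMM factors. The fit was tested on simulated data. Since all 10 members were tested, the exact permutation test planned for members below the filter was not needed. The members and gene lists were chosen with earlier results of these data known. Lists are described by counts. From each, at most 4 genes called in a comparison are named, the 2 with the largest change in each direction, or genes called across comparisons that were chosen after their values were seen. Genes most like a member are those of highest Spearman's rho, for the most abundant member and the member of smallest p. Alternatives were DESeq2 1.42.0, RLE factors, library totals, other filters, each comparison's libraries alone, a replicate block, and leaving out libraries. Upstream windows came from the mm9 genome (NCBIM37), with GENCODE vM1 annotation, and the window of 1 member is not reported here. Figures used matplotlib 3.10.9. Each library was a mouse of its own, and no libraries of the same group agreed within sampling noise. Libraries of different groups were not compared in this way.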

Additional observations from a re-analysis of the deposited data

How the results depend on the processing

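Of 1022 recomputed log2 fold changes of single members, 957 kept their direction and their side of the threshold or stayed uncalled, 50 lost the call, 15 gained one, and 0 reversed a call. The count of called members for CL on chow was 3 and fell to 1 with the replicate block and to 1 with the fold rule. With the fold rule the other counts became 1 for CL on HFD, 3 and 2 for C-3BO on chow and HFD, and 0 and 2 for diet in controls and C-3BO mice. DESeq2 called 1 member, Pde3b, for the difference between C-3BO and CL on HFD, where edgeR called 0. Leaving out 1 library at a time gave 1 to 4 members for CL on chow, 3 to 5 for CL on HFD, 4 to 6 for C-3BO on chow, 5 to 7 for C-3BO on HFD, 2 to 3 for diet in controls, 3 to 4 for diet in C-3BO mice, 0 to 1 for the difference between C-3BO and CL on chow, and 0 for the other differences. The replicate numbers are not stated to pair mice, and in no comparison did all 5 same-numbered pairs correlate above 0.1, nor did every sample correlate best with its own number. For C-3BO against control, the mean correlation was 0.172 on chow and 0.0598 on HFD for same-numbered pairs. For other pairs it was -0.0411 and -0.0144, so a pairing is not excluded there. For CL against saline, same-numbered pairs had means of -0.0332 on chow and -0.0748 on HFD. The replicate block otherwise gave 4 members for CL on HFD, 6 and 7 for C-3BO on chow and HFD, 3 and 3 for diet in controls and C-3BO mice, and 0 for each difference of effects. With the block or with libraries left out, the share of all genes called was not counted, so these counts have no background beside them. Requiring 10 counts in every library removed Pde3a, Pde4c and Pde8b, which had fewer in some. Of 80 group means, 12 moved by more than 1 SD with CPM on library totals. Apart from the block, the fold rule, DESeq2 and the libraries left out, no alternative moved a count of called members by over 1.5 times. Depth limits Pde8b and Pde3a most, at as few as 3 and 4 counts.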
